A study of Homo sapiens with 8 samples.

Results

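The serine/arginine-rich splicing factors (SR proteins, symbols SRSF plus digits) and the heterogeneous nuclear ribonucleoproteins (hnRNPs, symbols starting with HNRNP) were followed at the RNA level through a knockdown of the translation initiation factor eIF2A in 2 human cell lines. Of 37 such symbols among 19305 counted accessions, 33 genes had 10 or more counts in at least 2 libraries and were kept, 12 SRSF and 21 HNRNP genes. All 33 were among the 14565 genes tested. The 4 symbols left out, HNRNPCL1 to HNRNPCL4, had 0 counts in every library, and the kept gene nearest to the limit, HNRNPH2, had 11 to 46 counts. Polyadenylated RNA was sequenced in 8 libraries, 2 in each of 4 groups. HEK293T, a line derived from human embryonic kidney, received sodium arsenite, an oxidative stressor, together with an eIF2A siRNA or with a control siRNA, so both HEK293T groups were stressed. H9 cells, which are human embryonic stem cells, carried an eIF2A shRNA or a control shRNA and, by its labels, no arsenite. Line, arsenite and the kind of interfering RNA differ together and cannot be told apart.

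SR proteins bind exons through RNA recognition motifs and recruit the splicing machinery through arginine/serine-rich tails, whose phosphorylation sets their activity and location. hnRNPs coat nascent transcripts and often oppose SR proteins, silencing splice sites, looping out exons or steering export, stability and translation. Many genes of both families limit their own output through a poison exon, an alternative exon with an early stop codon that sends the transcript to nonsense-mediated decay, a pathway that acts while an mRNA is being translated.

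Every SRSF gene, 12 of 12, and 13 of 21 HNRNP genes had at least 1 transcript annotated as a decay target in GENCODE v29. That is 75.8% of the 33 genes, against 40.5% of 14073 tested genes found in the same annotation. In 9 of the 33 genes such a transcript held its stop codon in an internal exon that no protein-coding transcript overlapped. These were 14 pairs of exon start and end in all. Some pairs in SRSF7 and SRSF12 share 1 end, so the separate exons are fewer. The sequences of 7 such exons are shown, from the first base of the exon to the stop codon, which stands in capitals. They are 1 per such gene with at least 10 CPM and values for every library of at least 1 line further on. The deposited files hold 1 count for each of these genes, listed under 1 RefSeq transcript, so whether these exons were included was not measured. Whether that count covers every transcript of the gene is not stated.
SRSF3: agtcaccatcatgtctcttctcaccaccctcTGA
SRSF6: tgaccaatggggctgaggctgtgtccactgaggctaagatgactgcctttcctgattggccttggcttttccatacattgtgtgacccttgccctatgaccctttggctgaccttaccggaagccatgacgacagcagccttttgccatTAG
SRSF7: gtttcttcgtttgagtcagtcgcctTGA
SRSF9: aaaactatTAG
HNRNPL: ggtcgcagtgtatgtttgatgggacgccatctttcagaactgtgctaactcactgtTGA
HNRNPLL: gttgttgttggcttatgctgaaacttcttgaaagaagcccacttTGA
HNRNPU: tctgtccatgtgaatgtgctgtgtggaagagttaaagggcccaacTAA
On GRCh38 the SRSF3 exon spans chr6:36599821-36600276 on the plus strand (456 bases) and the SRSF6 exon chr20:43459153-43459420 on the plus strand (268 bases). The SRSF7 exon spans chr2:38748898-38749346 on the minus strand (449 bases) and the SRSF9 exon chr12:120464733-120464822 on the minus strand (90 bases). The HNRNPL exon spans chr19:38841613-38841682 on the minus strand (70 bases), the HNRNPLL exon chr2:38577920-38578002 on the minus strand (83 bases) and the HNRNPU exon chr1:244848788-244848856 on the minus strand (69 bases). The distance from exon start to the end of the stop codon ran from 11 bases in SRSF9 to 152 bases in SRSF6.

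Gene counts per library ranged from 21837052 to 32318668. EIF2A, the targeted transcript, had 5.58 and 5.98 CPM with eIF2A siRNA, against 17.5 and 18.3 CPM with control siRNA, which left 32.2% of its control level. In H9 it had 5.03 and 4.67 CPM with eIF2A shRNA, against 15.8 and 14.8 CPM with control shRNA, which left 31.8%. The pluripotency markers summed to 4708 and 4777 CPM with eIF2A shRNA and 5058 and 5095 CPM with control shRNA in H9, against 137 to 151 CPM in HEK293T, where NANOG and L1TD1 had 0 counts. Most of the H9 sum was LIN28A and DNMT3B, with control means of 2971 and 1720 CPM. In HEK293T it was nearly all DNMT3B, with a control mean of 144 CPM. In H9, 2 of the 6 tested pluripotency markers were called higher, SOX2 and L1TD1 (log2 fold changes 0.47 and 1.01). The 3 called lower were POU5F1, LIN28A and DNMT3B (-0.48, -0.11 and -0.15). Of markers of other cell types, the fibroblast list summed to 878 and 890.2 CPM with eIF2A shRNA against 1007 and 1013 CPM in H9 controls (2 higher and 1 lower of 4 tested). Most of that sum was THY1, with 62313 counts over the H9 libraries. COL1A2 had 10700, COL1A1 9654, PDGFRB 3128 and DCN 3, so the sum is no measure of fibroblasts. The neural list summed to 635 and 625 CPM with eIF2A shRNA against 577 and 597 CPM in H9 controls (2 higher and 2 lower of 5). The trophoblast list, with CDX2 at 0 counts in H9, summed to 16.9 and 16.2 CPM against 25.6 and 26.2 CPM (1 higher and 1 lower of 4), and the mesoderm and endoderm list to 4.33 and 3.86 CPM against 5.74 and 6.32 CPM (1 lower of 3). Reads without a counted feature made up 14.98 and 14.95% of the eIF2A siRNA libraries against 15.6 and 17.7% of the HEK293T controls, and 20.8 and 20.6% of the eIF2A shRNA libraries against 18.8 and 18.4% of the H9 controls. The part of these differences in the results that follow was not tested. In bulk RNA, fewer cells with a transcript and less of it per cell cannot be told apart. Levels throughout are CPM, counts relative to library size after scaling with TMM factors. Nothing in the labels ties the libraries of a group to separate cultures, and the p-values therefore speak only to the spread between these libraries, which may be technical.

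Per kilobase of transcript, HNRNPC, which packages long nuclear transcripts, ranked first of the 33 genes in each of the 4 groups, with mean levels of 998 and 1026 CPM per kilobase in eIF2A siRNA and control siRNA HEK293T cells and 644 and 695 CPM per kilobase in eIF2A shRNA and control shRNA H9 cells. HNRNPA1, a repressor that binds exonic and intronic silencers, ranked second in each control group, at 488 CPM per kilobase in HEK293T and 503 in H9. SRSF9 was the SR gene with the highest level per kilobase in both control groups (rank 5 in each, 307 and 217 CPM per kilobase in HEK293T and H9), above SRSF2, which ranked 7 in HEK293T and 9 in H9. HNRNPH2, SRSF12 and SRSF10 took ranks 33, 32 and 31 in both control groups, and with HNRNPA1L2 they were the 4 kept genes that never passed 202 counts in a library. The 33 genes together summed to 11819 and 11502 CPM in eIF2A siRNA libraries against 10681 and 11216 CPM in HEK293T controls, and to 10518 and 10548 CPM in eIF2A shRNA libraries against 9864 and 9889 CPM in H9 controls. With TMM scaling the knockdown libraries lay above the controls in both lines. The size factors of DESeq2, another scaling, shifted the median H9 log2 fold change of all genes by -0.15. The sums were not recomputed with them, so the direction of the H9 sum may depend on the scaling. For the SRSF genes alone the sums were 2611 and 2595 CPM against 2412 and 2467 CPM in HEK293T, and 1852 and 1895 CPM against 1871 and 1853 CPM in H9, where the groups overlapped.

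In arsenite-treated HEK293T cells, 18 of the 33 genes were higher with eIF2A siRNA than with control siRNA and 0 were lower, at an adjusted p under 0.05 in edgeR's quasi-likelihood test, which called 28.7% of all genes (14.1% higher, 14.7% lower). The rises were small, with a largest log2 fold change of 0.36 (all fold changes are given ± SE), and the median over the 33 genes was 0.13 against -0.003 over all genes tested. Both families took part, 5 of 12 SRSF genes and 13 of 21 HNRNP genes. Both eIF2A siRNA libraries lay above both controls for 21 of the 33 genes (28.7% of all genes) and below both for 3 (30.1%). Of the lower side, 1 gene, SRSF2, had an unadjusted p under 0.05 (log2 fold change -0.07, adjusted p = 0.085). DESeq2 called 0 members lower and limma-voom 1, again SRSF2. Without eIF2A siRNA replicate 1 the count was 9 higher. The 2 control siRNA libraries differed more from each other than the libraries of other groups, with a chi-square per degree of freedom of 4.91 against 1.35 to 1.80.

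**Figure D1:**
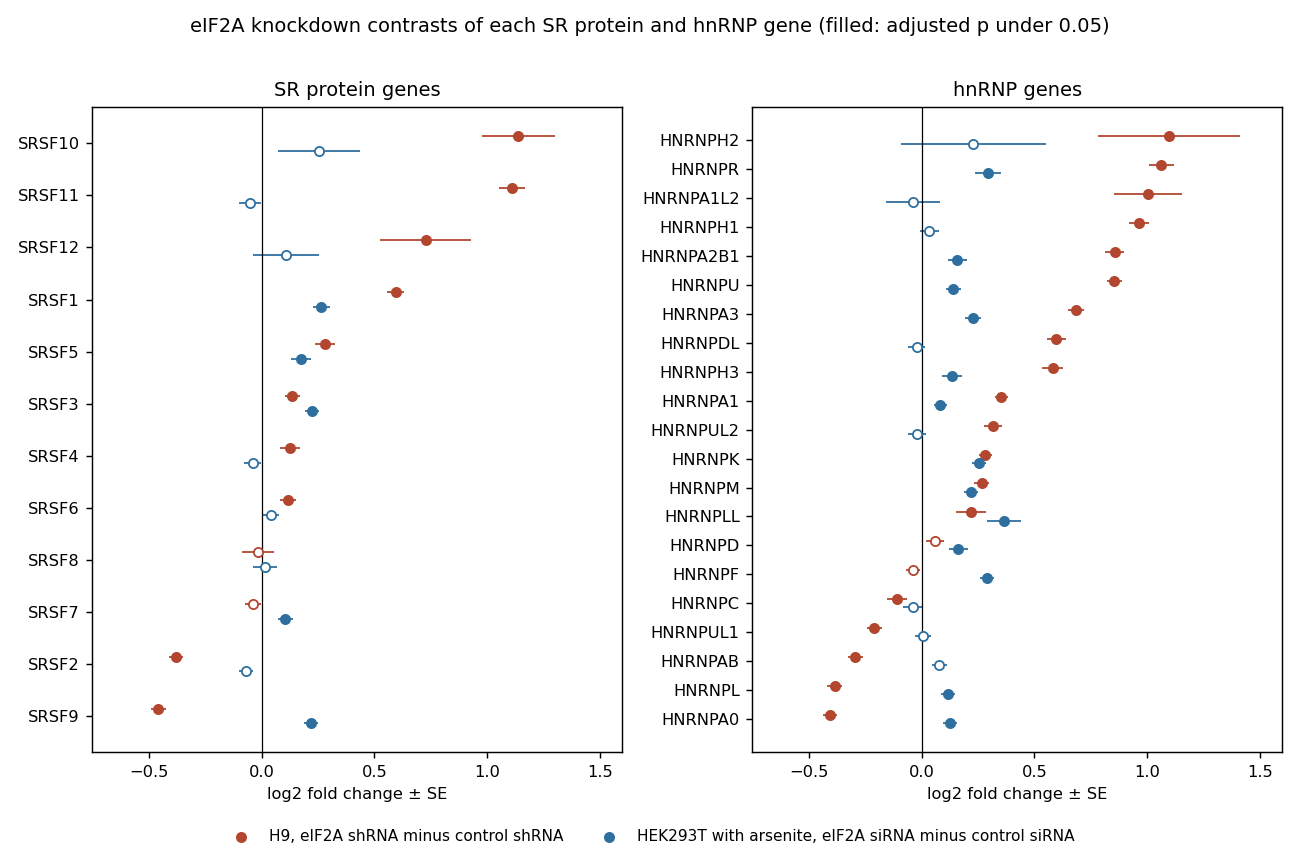
Log2 fold changes (x axis) of the 12 SRSF genes (left) and 21 HNRNP genes (right), eIF2A shRNA minus control shRNA in H9 (red) and eIF2A siRNA minus control siRNA in arsenite-treated HEK293T cells (blue); bars are ± 1 SE from edgeR, n = 2 libraries per group, and filled points have an adjusted p under 0.05. All 18 filled HEK293T points lie right of 0, whereas the filled H9 points run from -0.46 (SRSF9) to 1.14 (SRSF10).

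Among SR genes in HEK293T, SRSF1, the prototype SR protein, had 209 and 209 CPM with eIF2A siRNA, against 169 and 179 CPM with control siRNA. Its knockdown libraries lay above both controls (log2 fold change 0.26 ± 0.038, edgeR adjusted p = 1.1e-06). SRSF3, the smallest SR protein, also an mRNA export adaptor, had 511 and 498 CPM with eIF2A siRNA, against 420.2 and 443 CPM with control siRNA (log2 fold change 0.22 ± 0.032, edgeR adjusted p = 1.2e-06). SRSF9, a short SR protein with a truncated tail, had 430.2 and 429 CPM with eIF2A siRNA, against 366 and 372 CPM with control siRNA (log2 fold change 0.22 ± 0.031, edgeR adjusted p = 7.9e-07). In all 3 genes the gap between the groups exceeded the gap within either group. SRSF5, an enhancer-binding SR protein, had 109.5 and 106 CPM with eIF2A siRNA, against 90.2 and 100.3 CPM with control siRNA (log2 fold change 0.18 ± 0.044, edgeR adjusted p = 0.0022), and SRSF7, an export adaptor with a zinc knuckle, had 216 and 209 CPM with eIF2A siRNA, against 196 and 198 CPM with control siRNA (log2 fold change 0.11 ± 0.034, edgeR adjusted p = 0.016). The calls of SRSF5 and SRSF7 were lost without eIF2A siRNA replicate 1, with an adjusted p of 0.052 and 0.20 in edgeR. The other 7 SRSF genes had log2 fold changes from -0.07 (SRSF2) to 0.26 (SRSF10, at 2.17 to 3.39 CPM) and were not called in edgeR. SRSF2 was called lower with limma-voom (adjusted p = 0.047) and with upper-quartile scaling in edgeR (adjusted p = 0.041), and in edgeR without control siRNA replicate 2 (adjusted p = 0.022).

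Of the HNRNP genes in HEK293T, HNRNPLL, a relative of hnRNP L known for regulating CD45 splicing in T cells, had the largest log2 fold change, at 18.6 and 18.0 CPM with eIF2A siRNA, against 14.1 and 14.3 CPM with control siRNA (log2 fold change 0.36 ± 0.075, edgeR adjusted p = 2.5e-04). HNRNPF, which binds runs of G, had 325 and 319.6 CPM with eIF2A siRNA, against 259 and 267 CPM with control siRNA (log2 fold change 0.29 ± 0.032, edgeR adjusted p = 9.9e-09). HNRNPR, a hnRNP also known for axonal mRNA transport, had 65.0 and 61.5 CPM with eIF2A siRNA, against 46.8 and 55.6 CPM with control siRNA (log2 fold change 0.29 ± 0.056, edgeR adjusted p = 1.5e-04). In each, the lowest eIF2A siRNA library exceeded the highest control. HNRNPK, which binds C-rich RNA, had 682 and 684 CPM with eIF2A siRNA, against 571 and 573 CPM with control siRNA (log2 fold change 0.26 ± 0.030, edgeR adjusted p = 3.2e-08). HNRNPA3 had 236 and 221 CPM with eIF2A siRNA, against 193 and 198 CPM with control siRNA (log2 fold change 0.23 ± 0.035, edgeR adjusted p = 3.8e-06), and HNRNPM, which binds GU-rich RNA, had 342 and 332 CPM with eIF2A siRNA, against 286 and 293 CPM with control siRNA (log2 fold change 0.22 ± 0.032, edgeR adjusted p = 1.2e-06). These 6 calls stood whichever library was left out. HNRNPD (AUF1), which binds AU-rich elements and promotes mRNA decay, had 441 and 411 CPM with eIF2A siRNA, against 360.1 and 399 CPM with control siRNA (log2 fold change 0.16 ± 0.041, edgeR adjusted p = 0.0037). HNRNPA2B1, a relative of hnRNP A1, had 496 and 468 CPM with eIF2A siRNA, against 407 and 457 CPM with control siRNA (log2 fold change 0.16 ± 0.041, edgeR adjusted p = 0.0056). Both lost their call without eIF2A siRNA replicate 1 (adjusted p = 0.099 in edgeR for each). HNRNPA0, HNRNPA1, HNRNPH3, HNRNPL and HNRNPU also rose, by 0.08 to 0.14 on the log2 scale, and all 5 lost their call without eIF2A siRNA replicate 1 (adjusted p up to 0.34 in edgeR). The call was also lost without control siRNA replicate 1 or H9 control shRNA replicate 2 for HNRNPA1, without eIF2A siRNA replicate 2 for HNRNPH3 and without control siRNA replicate 2 for HNRNPL. The 8 HNRNP genes without a call had log2 fold changes from -0.04 (HNRNPC) to 0.23 (HNRNPH2). HNRNPC had 1823 and 1738 CPM with eIF2A siRNA, against 1717 and 1943 CPM with control siRNA, and its control libraries stood further apart than its group means. Without control siRNA replicate 1 it was called lower (log2 fold change -0.12, edgeR adjusted p = 2.5e-04).

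In H9 cells, 22 of the 33 genes were higher with eIF2A shRNA than with control shRNA and 7 were lower, in a line where 71.3% of all genes were called (37% higher, 34.3% lower). With DESeq2's size factors the split was 18 higher and 11 lower (31.3 and 42% of all genes), a scaling that shifted the median of all genes by -0.15. The median log2 fold change was 0.28 over the 33 genes and 0.02 over all genes tested, a gap of 0.26 that was 0.25 with DESeq2's size factors. With a smooth trend on GC content and transcript length removed from each library, the split turned to 8 higher and 16 lower (23.4 and 26.2% of all genes) and the gap to -0.10. By family, 8 SRSF genes rose and 2 fell of 12, and 14 HNRNP genes rose and 5 fell of 21. Both eIF2A shRNA libraries lay above both controls for 23 genes (43.9% of all genes) and below both for 9 (41%), and they overlapped only for SRSF8. Fold changes reached 2.20 in H9 (SRSF10), against 1.29 in HEK293T (HNRNPLL).

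Among SR genes in H9, SRSF11, a regulator that associates with the U2 auxiliary factor, had 55.6 and 53.6 CPM with eIF2A shRNA, against 25.0 and 25.6 CPM with control shRNA (log2 fold change 1.11 ± 0.058, edgeR adjusted p = 4.6e-18). SRSF1 had 277 and 293 CPM with eIF2A shRNA, against 195 and 182 CPM with control shRNA (log2 fold change 0.59 ± 0.038, edgeR adjusted p = 7.4e-16), and SRSF5 had 123 and 129.6 CPM with eIF2A shRNA, against 105 and 103 CPM with control shRNA (log2 fold change 0.28 ± 0.045, edgeR adjusted p = 1.0e-06). All 3 genes had both knockdown libraries clear of the controls. SRSF3 rose less, with 333 and 338 CPM with eIF2A shRNA, against 303 and 307 CPM with control shRNA (log2 fold change 0.14 ± 0.033, edgeR adjusted p = 4.7e-04), and SRSF6 had 173 and 176 CPM with eIF2A shRNA, against 166 and 156 CPM with control shRNA (log2 fold change 0.12 ± 0.037, edgeR adjusted p = 0.0055). SRSF4 was called as well, at a log2 fold change of 0.13, and the directions of SRSF3, SRSF4 and SRSF6 turned to -0.02, -0.03 and -0.04 with DESeq2's size factors, without a call. SRSF6 lost its call without eIF2A shRNA replicate 2 or control shRNA replicate 2, and SRSF4 without eIF2A shRNA replicate 2 or control shRNA replicate 1 (adjusted p up to 0.18 and 0.12 in edgeR). Of the genes that fell, SRSF9 had 191 and 189 CPM with eIF2A shRNA, against 257 and 265 CPM with control shRNA (log2 fold change -0.46 ± 0.033, edgeR adjusted p = 2.0e-14). SRSF2 (SC35), an enhancer-binding protein of nuclear speckles, had 389.9 and 397 CPM with eIF2A shRNA, against 513 and 510.4 CPM with control shRNA (log2 fold change -0.38 ± 0.031, edgeR adjusted p = 4.7e-13). SRSF10 and SRSF12, which can act as splicing repressors, were called higher at low levels. SRSF10 had 7.27 and 6.66 CPM with eIF2A shRNA, against 3.08 and 3.26 CPM with control shRNA. SRSF12 had 4.17 and 2.84 CPM with eIF2A shRNA, against 2.14 and 2.12 CPM with control shRNA, and its call was lost without eIF2A shRNA replicate 1 (adjusted p = 0.15 in edgeR). SRSF7 (177 and 180.5 CPM with eIF2A shRNA, against 185 and 181 CPM with control shRNA) and SRSF8 were not called as measured, but both were called lower with the GC and length trend removed (log2 fold changes -0.70 and -0.69).

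The HNRNP genes with the largest rises in H9 among those with at least 10 CPM were HNRNPR, with 107 and 105 CPM with eIF2A shRNA, against 51.8 and 49.6 CPM with control shRNA (log2 fold change 1.06 ± 0.057, edgeR adjusted p = 2.3e-16), and HNRNPH1, a binder of G runs, with 172 and 176 CPM with eIF2A shRNA, against 90.4 and 88.1 CPM with control shRNA (log2 fold change 0.96 ± 0.045, edgeR adjusted p = 4.5e-19). Their fold changes were 2.09 and 1.95, with groups far apart. HNRNPA2B1 had 594 and 611 CPM with eIF2A shRNA, against 330.0 and 335 CPM with control shRNA (log2 fold change 0.86 ± 0.042, edgeR adjusted p = 3.9e-14). HNRNPU, a chromatin-associated scaffold protein, had 474 and 459 CPM with eIF2A shRNA, against 256 and 259.9 CPM with control shRNA (log2 fold change 0.85 ± 0.034, edgeR adjusted p = 2.8e-21). HNRNPA3 had 289 and 283 CPM with eIF2A shRNA, against 178 and 178 CPM with control shRNA (log2 fold change 0.69 ± 0.036, edgeR adjusted p = 4.3e-18). The replicates of these genes differed by far less than the groups did. HNRNPDL had 169 and 173 CPM with eIF2A shRNA, against 115 and 111 CPM with control shRNA (log2 fold change 0.60 ± 0.042, edgeR adjusted p = 1.1e-14), and HNRNPH3 had 90.0 and 85.8 CPM with eIF2A shRNA, against 60.1 and 57.3 CPM with control shRNA (log2 fold change 0.58 ± 0.047, edgeR adjusted p = 3.0e-13). HNRNPK had 675 and 691 CPM with eIF2A shRNA, against 558 and 564 CPM with control shRNA (log2 fold change 0.28 ± 0.030, edgeR adjusted p = 2.5e-10), and HNRNPLL had 30.5 and 28.6 CPM with eIF2A shRNA, against 25.2 and 25.5 CPM with control shRNA (log2 fold change 0.22 ± 0.067, edgeR adjusted p = 0.0039). The HNRNPLL call was lost without eIF2A shRNA replicate 1 (adjusted p = 0.084 in edgeR), whereas that of HNRNPK stood whichever library was left out. HNRNPA1, HNRNPM and HNRNPUL2 rose by 0.27 to 0.35 on the log2 scale, and HNRNPA1L2 and HNRNPH2, at under 7 CPM in every library, had log2 fold changes of 1.0 and 1.1. HNRNPH2 lost its call without control shRNA replicate 1 (adjusted p = 0.11 in edgeR).

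On the lower side in H9, HNRNPA0, which binds AU-rich elements, had 438 and 436 CPM with eIF2A shRNA, against 574 and 584 CPM with control shRNA (log2 fold change -0.41 ± 0.031, edgeR adjusted p = 8.3e-14). HNRNPL, which binds CA repeats, had 594 and 603 CPM with eIF2A shRNA, against 778 and 786 CPM with control shRNA (log2 fold change -0.39 ± 0.032, edgeR adjusted p = 7.4e-13). In both, the eIF2A shRNA libraries lay well under the controls. HNRNPAB, HNRNPUL1 and HNRNPC fell too, with log2 fold changes of -0.29, -0.21 and -0.11, and the call of HNRNPC was lost without eIF2A shRNA replicate 2 or without control shRNA replicate 2 (adjusted p up to 0.14 in edgeR). HNRNPD and HNRNPF were not called in H9 as measured (log2 fold changes 0.06 and -0.04). HNRNPD was called lower, at -0.10, with DESeq2's size factors, and both were called lower with the GC and length trend removed (-0.63 and -0.24).

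The difference between the 2 knockdown contrasts, H9 minus HEK293T, was called for 23 of the 33 genes, 15 higher and 8 lower, where 58.1% of all genes were called (31.1% higher, 27% lower). With DESeq2's size factors it was 13 higher and 14 lower, where 8781 of 14565 genes were called. That scaling shifted the median difference of all genes by -0.15. Of all genes tested, 14.1% were called higher in HEK293T and 37% in H9. The share of all genes called in both lines, in the same or in opposite directions, was not counted. A total of 12 members were called higher in both lines (SRSF1, SRSF3, SRSF5, HNRNPA1, HNRNPA2B1, HNRNPA3, HNRNPH3, HNRNPK, HNRNPLL, HNRNPM, HNRNPR and HNRNPU). Once the trend was taken out, 2 of these 12, HNRNPM and HNRNPR, were called higher in both lines, and 6 were called lower in H9 and higher in HEK293T. Of the 12, SRSF3, SRSF5, HNRNPK, HNRNPLL and HNRNPM had differences between lines from -0.14 to 0.11 as measured, without a call. HNRNPK and HNRNPM were called lower for the difference, at -0.13 and -0.11, with DESeq2's size factors. With the trend removed, the difference was called lower for SRSF3 (-0.95), HNRNPK (-0.60) and HNRNPLL (-1.02) and higher for HNRNPM (0.24). Called in opposite directions were 3 genes, SRSF9, HNRNPA0 and HNRNPL, each lower with eIF2A shRNA in H9 and higher with eIF2A siRNA in HEK293T. SRSF9 differed by -0.68 ± 0.045 (edgeR adjusted p = 1.2e-14). HNRNPA0 differed by -0.53 ± 0.044 (edgeR adjusted p = 2.2e-12), and HNRNPL by -0.50 ± 0.045 (edgeR adjusted p = 1.3e-11). In HEK293T, HNRNPA0 had 358 and 348 CPM with eIF2A siRNA, against 328 and 319.6 CPM with control siRNA (log2 fold change 0.13 ± 0.031, edgeR adjusted p = 0.0021), and HNRNPL had 958 and 950.0 CPM with eIF2A siRNA, against 912 and 848 CPM with control siRNA (log2 fold change 0.12 ± 0.032, edgeR adjusted p = 0.0044). The largest difference the other way was that of SRSF11, 1.16 ± 0.077 (edgeR adjusted p = 9.7e-15), which in HEK293T had 46.5 and 48.6 CPM with eIF2A siRNA, against 49.2 and 49.4 CPM with control siRNA, without a call. HNRNPH1, with a difference of 0.93 ± 0.062 (edgeR adjusted p = 1.5e-14), likewise had 141 and 141 CPM with eIF2A siRNA, against 129 and 146 CPM with control siRNA, where the groups overlapped. SRSF8 was the 1 gene called in neither line as measured.

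**Figure D2:**
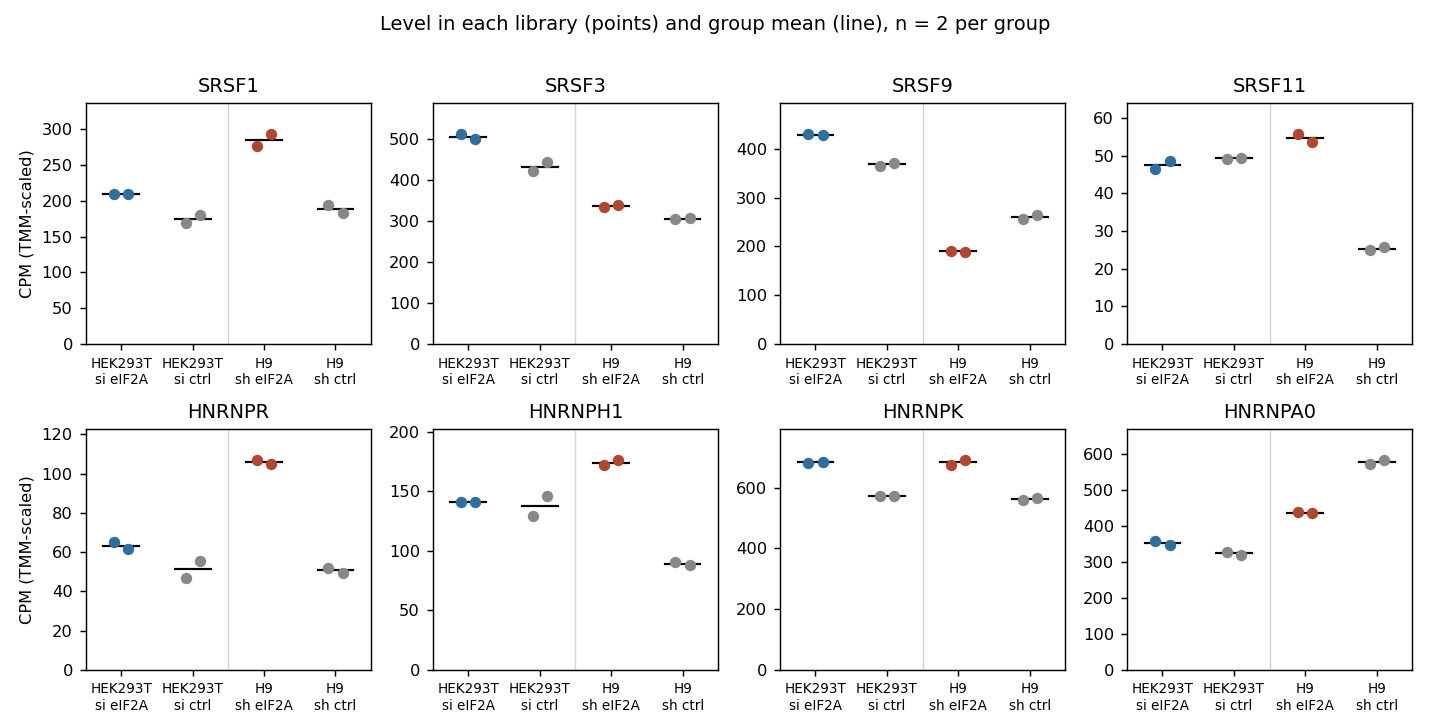
Levels (y axis, TMM-scaled CPM from 0) of 8 genes in each library, eIF2A siRNA and control siRNA in arsenite-treated HEK293T cells (left of each panel) and eIF2A shRNA and control shRNA in H9 (right); points are libraries and lines are means of n = 2. SRSF1 and HNRNPK were higher with knockdown in both lines, SRSF9 and HNRNPA0 were lower in H9 and higher in HEK293T, and SRSF11 and HNRNPH1 were called in H9 alone.

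The H9 contrast followed base composition across the transcriptome. Over 14489 genes with a matched transcript, Spearman's rho of the log2 fold change was -0.68 against GC content and 0.45 against length in H9, and -0.10 against each in HEK293T, as a description over genes that share the same libraries. Genes under 45% GC had a median log2 fold change of 0.85 in H9 and genes over 60% GC one of -0.40. The SR and hnRNP transcripts were poor in GC, with a median of 43.7% against 50.5% over all genes tested and a range from 37.3% (HNRNPA3) to 56.3% (HNRNPUL1). The 21 members under 45% GC had a median of 0.59 in H9 and the 7 over 50% one of -0.21. Over the 33 members rho with GC was -0.44 in H9 and -0.26 in HEK293T.

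**Figure D3:**
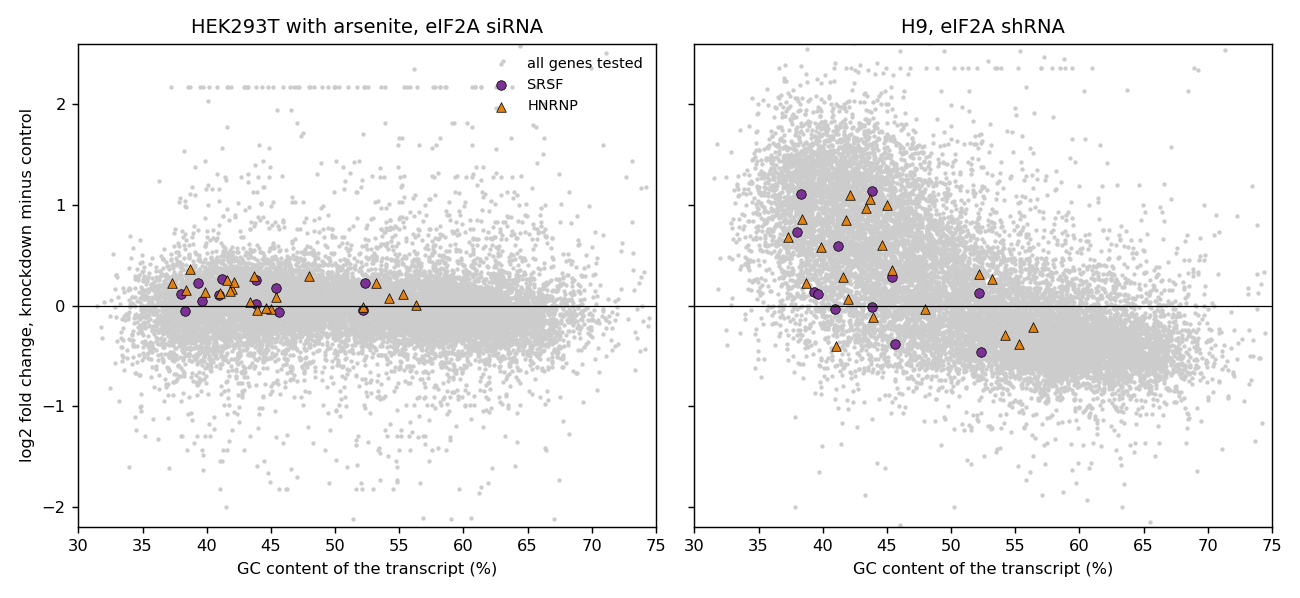
Log2 fold change (y axis) against GC content of the transcript (x axis, %) for SRSF genes (circles), HNRNP genes (triangles) and all genes with a matched transcript (grey) in arsenite-treated HEK293T cells (left, eIF2A siRNA minus control siRNA) and H9 (right, eIF2A shRNA minus control shRNA); 171 and 102 of 14489 genes lie outside the left and right axes. In H9 the grey cloud falls with GC. Of the members over 50% GC, SRSF9, HNRNPAB, HNRNPL and HNRNPUL1 lie below 0 in H9, and SRSF4, HNRNPM and HNRNPUL2 lie above 0.

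With this trend on GC and length removed from each library, the median in H9 was -0.09 over the 33 genes. Called higher in both fits were SRSF4, SRSF10, SRSF11, HNRNPA1L2, HNRNPH1, HNRNPM, HNRNPR and HNRNPUL2. Called lower in both were SRSF2, SRSF9, HNRNPA0, HNRNPC and HNRNPL. SRSF7, SRSF8, HNRNPD and HNRNPF gained a lower call. Direction turned from higher to lower, with a call in both fits, for 7 genes: SRSF1, SRSF3, SRSF6, HNRNPA3, HNRNPK, HNRNPLL and HNRNPU, whose values with the trend removed ran from -0.77 (SRSF6) to -0.13 (SRSF1). With the trend removed, the H9 log2 fold change was 0.27 ± 0.059 (edgeR adjusted p = 2.5e-04) for SRSF11. It was 0.52 ± 0.052 (edgeR adjusted p = 1.6e-10) for HNRNPR and 0.45 ± 0.042 (edgeR adjusted p = 1.6e-11) for HNRNPH1, while HNRNPA2B1 stood at 0.03 and was not called. After removal rho with GC in H9 was 0.32 over the members, against -0.04 over all genes with a matched transcript. Whether the fit removed too much for the members was not tested. In HEK293T the counts moved little, to 14 higher and 2 lower (14.5 and 12.9% of all genes). All 14 were among the 18 called higher as measured; SRSF5, SRSF7, HNRNPA1 and HNRNPH3 were not called, and SRSF2 (-0.14) and HNRNPC (-0.13) were called lower. For the difference between lines, 7 were then higher and 17 lower (19.6 and 22.9% of all genes). Of the 15 genes with a higher difference as measured, 6 stayed higher, 4 turned lower and 5 were not called, and of the 8 with a lower one, 6 stayed lower. With the trend removed, 26.2% of all genes were lower in H9 and 14.5% higher in HEK293T, and the share that were both was not counted. Lower in H9 and higher in HEK293T with the trend removed were 11 members. SRSF9, HNRNPA0 and HNRNPL were so in both fits, at -0.10, -1.49 and -0.11 in H9 with the trend removed. The other 8, SRSF1, SRSF3, HNRNPA3, HNRNPD, HNRNPF, HNRNPK, HNRNPLL and HNRNPU, were so only with the trend removed.

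**Figure D4:**
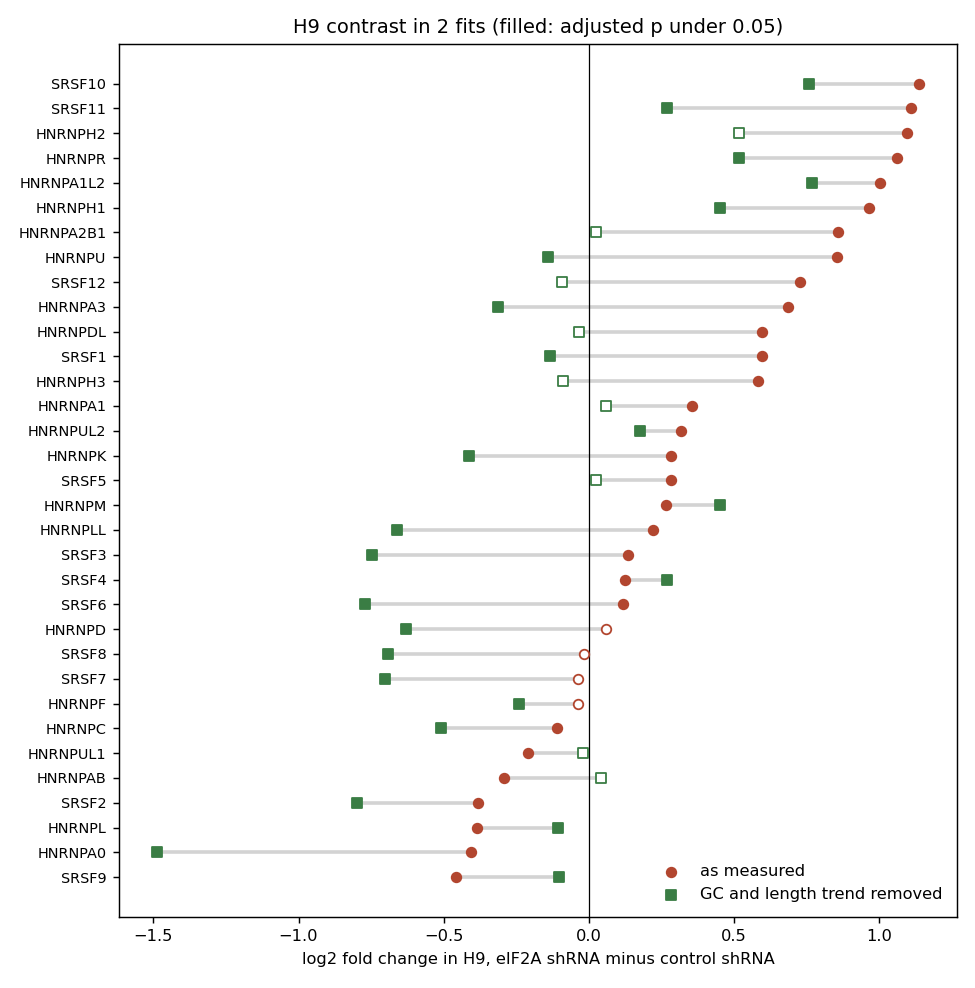
Log2 fold change in H9, eIF2A shRNA minus control shRNA (x axis), of each of the 33 genes as measured (circles) and with the GC and length trend of each library removed (squares); filled marks have an adjusted p under 0.05 in edgeR. SRSF10, SRSF11, HNRNPA1L2, HNRNPH1 and HNRNPR lie right of 0 as filled marks in both fits, and SRSF1, SRSF3, SRSF6, HNRNPA3, HNRNPK, HNRNPLL and HNRNPU cross from right to left.

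Members with and without a decay-annotated transcript were then set side by side. Of all genes, 14.1% were called higher and 14.7% lower in HEK293T. In H9 the shares were 37 and 34.3% as measured, and 23.4 and 26.2% with the trend removed. In HEK293T, 14 of 25 with such a transcript and 4 of 8 without were called higher, with median log2 fold changes of 0.12 and 0.13. In H9, 17 of the 25 were higher and 5 lower (median 0.27), and of the 8 without, 5 were higher and 2 lower (median 0.45). Once the trend was removed, 6 of the 25 were higher and 13 lower in H9 (median -0.10), and 2 of the 8 were higher and 3 lower (median -0.02). The genes whose poison exons are printed above went both ways in H9 as measured. Their log2 fold changes were 0.14 (SRSF3), 0.12 (SRSF6), -0.04 (SRSF7), -0.46 (SRSF9), -0.39 (HNRNPL), 0.22 (HNRNPLL) and 0.85 (HNRNPU). With the trend removed they were, in the same order, -0.75, -0.77, -0.70, -0.10, -0.11, -0.66 and -0.14. Of 10 decay factors, 2 were higher and 1 lower with eIF2A siRNA in HEK293T, and 5 were higher and 3 lower with eIF2A shRNA in H9 (4 and 4 with the trend removed). The counts as measured are close to the 28.7 and 71.3% of all genes called in HEK293T and H9. With the trend removed, 49.6% of all genes were called in H9, a smaller share than that of the decay factors. SMG1, the kinase that phosphorylates UPF1, had 38.8 and 36.2 CPM with eIF2A shRNA, against 12.3 and 9.23 CPM with control shRNA (log2 fold change 1.80 ± 0.094, edgeR adjusted p = 2.4e-17), and UPF1, the central helicase, had 195 and 197 CPM with eIF2A shRNA, against 257 and 254 CPM with control shRNA (log2 fold change -0.38 ± 0.033, edgeR adjusted p = 2.0e-12). SMG1 remained called higher and UPF1 lower with the GC and length trend removed (0.77 and -0.28).

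Genes that work with the SR and hnRNP proteins were counted from 4 further lists, to be read against the shares of all genes called, 14.1% higher and 14.7% lower in HEK293T and 37% higher and 34.3% lower in H9 (23.4 and 26.2% with the trend removed). Of 20 SR-related proteins and coactivators, 2 rose and 4 fell in HEK293T (median log2 fold change 0.04), and 15 rose and 2 fell in H9 (median 0.64; 13 and 5 with the trend removed). PNN, a partner of the exon junction complex, had 39.1 and 38.2 CPM with eIF2A shRNA, against 14.4 and 12.2 CPM with control shRNA, and BCLAF1 had 52.6 and 55.0 CPM with eIF2A shRNA, against 23.8 and 20.2 CPM with control shRNA. Both rose in H9 (log2 fold changes 1.54 and 1.29, and 0.75 and 0.23 with the trend removed), whereas in HEK293T BCLAF1 fell, at 26.8 and 23.0 CPM with eIF2A siRNA, against 33.6 and 32.6 CPM with control siRNA (log2 fold change -0.41 ± 0.069, edgeR adjusted p = 1.7e-05). Of 12 kinases, phosphatases and the importer of SR proteins, 3 rose and 2 fell in HEK293T, and 8 rose and 3 fell in H9 (median 0.69; 5 and 2 with the trend removed). SRPK1, the cytoplasmic SR kinase, with a log2 fold change of 0.45 in H9 with the trend removed, had 62.9 and 63.7 CPM with eIF2A shRNA, against 26.6 and 25.97 CPM with control shRNA (log2 fold change 1.27 ± 0.055, edgeR adjusted p = 4.4e-20), and TNPO3, the SR importer, rose in both lines (log2 fold changes 0.29 in HEK293T and 0.78 in H9, the second 0.35 with the trend removed). Of 25 hnRNPs and relatives under other symbols, 4 rose and 4 fell in HEK293T, and 13 rose and 9 fell in H9 (median 0.41; 6 and 10 with the trend removed). MATR3, a nuclear matrix protein, was called lower in HEK293T (-0.30) and higher in H9 (1.09, and 0.24 with the trend removed), while TARDBP (TDP-43) was called higher in both (0.18 and 0.80), although its H9 value turned to -0.17 with the trend removed. Of 33 core spliceosome genes, 12 rose and 6 fell in HEK293T (median 0.05), and 6 rose and 22 fell in H9 (median -0.30; 6 and 15 with the trend removed). SNRPB, a core Sm protein, was higher with eIF2A siRNA in HEK293T (0.22) and lower with eIF2A shRNA in H9 (-0.51), where it was not called with the trend removed (0.06). SF3B1, the branch-point factor, had 94.5 and 94.3 CPM with eIF2A shRNA, against 41.3 and 36.0 CPM with control shRNA (log2 fold change 1.29 ± 0.054, edgeR adjusted p = 1.5e-20), and its log2 fold change was 0.28 with the trend removed.

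Counting limits touch several members. In GENCODE v29, 61.1% of the exonic bases of SRSF1, 45.7% of HNRNPUL2 and 22.7% of HNRNPL are shared with another gene model, mainly on the same strand. HNRNPH2, the lowest-ranked member, shares 16.3% with the same-strand gene model RPL36A-HNRNPH2, and HNRNPAB shares 10.9% with the opposite-strand gene PHYKPL. The opposite-strand genes GATC and MFSD11 account for most of the 41.2% shared in SRSF9 and the 33.8% shared in SRSF2. Whether the count used strand is not stated, and reads of such partners may not be told apart. GATC had log2 fold changes of -0.01 in HEK293T (adjusted p = 0.88) and -0.16 in H9 (adjusted p = 0.0015) in edgeR, against 0.22 and -0.46 for SRSF9. MFSD11 had 0.07 and 0.16, without a call, against -0.07 and -0.38 for SRSF2. HNRNPA1, HNRNPA3 and HNRNPC have 75, 17 and 9 pseudogenes in RefSeq, so their levels are less certain.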

How the data were processed

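TRIzol served for RNA extraction and the TruSeq Stranded mRNA kit for library construction, per the labels' protocols. Per the submitters' processing notes, reads were handled with cutadapt and STAR 2.5.2b against hg19. The authors deposited raw counts per RefSeq transcript accession; which counter, strand setting and annotation were used is not given in the sources used here. The 5 special counters of each file (20.4 to 25.7% of reads listed) stayed out of library sizes and tests. Symbols came from RefSeq for 18888 accessions and GENCODE for 223, leaving 194 unnamed.

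In R 4.3.3, edgeR 4.0.16 kept genes with filterByExpr, scaled with TMM and fitted 4 group means to 8 libraries, leaving 4 residual degrees of freedom. The robust quasi-likelihood F test was two-sided, with Benjamini-Hochberg adjustment over 14565 genes and a threshold of 0.05. The GC and length trend of each library was fitted with splines of 5 degrees of freedom each on GENCODE v29 transcripts (GRCh38), for which SRSF11 and HNRNPA3 were matched by symbol. Scripts were tested on simulated data. Sequences, exons and overlaps are from GENCODE v29. Alternatives used DESeq2 1.42.0 and limma 3.58.1, other scalings and filters, single lines, a replicate block, leave-one-out and a threshold of 0.01. Per-library values are given for the largest called changes among members with at least 10 CPM (up to 6 SRSF and 8 HNRNP genes per line), members called in opposite directions and members whose H9 call turned with the trend removed; HNRNPC, SRSF7, SRSF10, SRSF11, SRSF12 and HNRNPH1 values outside this rule were added after they were seen. From each other list up to 4 genes with the smallest p were eligible. The members and lists were chosen with earlier results of these data known. The values of 1 decay factor are not reported here.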

Additional observations from a re-analysis of the deposited data

Results flagged for a closer look

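The knockdown contrasts of 23 of the 33 genes differed between H9 with eIF2A shRNA and arsenite-treated HEK293T with eIF2A siRNA. That is by edgeR's test of the difference itself, which called 58.1% of all genes (42.5% with the GC and length trend removed). Line, arsenite and the kind of interfering RNA cannot be told apart in it. The log2 fold change was lower in H9 than in HEK293T by these differences: -0.68 for SRSF9, -0.53 for HNRNPA0, -0.50 for HNRNPL, -0.37 for HNRNPAB, -0.33 for HNRNPF, -0.31 for SRSF2, -0.22 for HNRNPUL1 and -0.14 for SRSF7. It was higher in H9 by 0.17 for SRSF4, 0.27 for HNRNPA1, 0.33 for SRSF1, 0.34 for HNRNPUL2, 0.45 for HNRNPH3 and 0.46 for HNRNPA3. The gaps above 0.6 were 0.62 for SRSF12, 0.62 for HNRNPDL, 0.70 for HNRNPA2B1, 0.71 for HNRNPU, 0.77 for HNRNPR, 0.88 for SRSF10, 0.93 for HNRNPH1, 1.04 for HNRNPA1L2 and 1.16 for SRSF11. The calls for SRSF4, SRSF7 and SRSF12 were lost when single libraries were left out, with adjusted p-values up to 0.11, 0.077 and 0.41 in edgeR. With the GC and length trend removed, the differences of 7 genes were no longer called (SRSF10, SRSF12, HNRNPA1, HNRNPA2B1, HNRNPDL, HNRNPAB and HNRNPUL1), and 4 turned lower (SRSF1, HNRNPA3, HNRNPH3 and HNRNPU).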

How the results depend on the processing

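With the trend removed, 2 members were lower in HEK293T, 8 were higher and 16 lower in H9, and 7 were higher and 17 lower for the difference between lines. The replicate block with the trend removed gave 2 lower in HEK293T, 8 higher and 16 lower in H9, and 8 higher and 17 lower for the difference. DESeq2's size factors gave 11 lower in H9 and 14 lower for the difference, and upper-quartile scaling and limma-voom each gave 1 lower in HEK293T. DESeq2 as the test called 2742 genes in HEK293T, against 4182 with edgeR. These fits turned single members as follows, and the cause was not tested. With the trend removed, with or without the replicate block, H9 values were -0.31 for HNRNPA3, 0.043 for HNRNPAB, -0.63 for HNRNPD, -0.034 for HNRNPDL, -0.088 for HNRNPH3, -0.41 for HNRNPK, -0.66 for HNRNPLL, -0.14 for HNRNPU, -0.13 for SRSF1, -0.093 for SRSF12 (-0.094 with the block), -0.75 for SRSF3 and -0.77 for SRSF6. The difference between lines was then -0.12 for HNRNPA2B1, -0.60 for HNRNPA3, -0.17 for HNRNPH3, -0.60 for HNRNPK, -0.30 for HNRNPU, -0.34 for SRSF1, -0.19 for SRSF12 and -0.79 for SRSF6, and the HEK293T value of HNRNPA1 was -0.00021 (-0.00039 with the block). DESeq2's size factors in edgeR gave -0.10 for HNRNPD, -0.024 for SRSF3, -0.034 for SRSF4 and -0.042 for SRSF6 in H9, and -0.13 for HNRNPK and -0.11 for HNRNPM in the difference; the DESeq2 test gave the same rounded values for SRSF3, SRSF4, SRSF6 and HNRNPK. Leaving out each library in turn gave 9 to 21 members called in HEK293T (9 to 20 higher, 0 to 1 lower), 26 to 30 in H9 (20 to 23 higher, 6 to 7 lower) and 20 to 25 for the difference (13 to 16 higher, 7 to 11 lower). Over all genes it gave 2903 to 4079 calls in HEK293T, 9522 to 10597 in H9 and 7818 to 8496 for the difference. Of the calls, 9 of 18 in HEK293T, 23 of 29 in H9 and 20 of 23 for the difference stood in every leave-one-out fit, where a lone library of a group is assumed to vary like the others. The count of 9 in HEK293T came without eIF2A siRNA replicate 1. Libraries with the same set number showed no shared deviation, with a correlation of -0.015 in HEK293T and 0.005 in H9. This cannot tell whether the sets were paired by design. The replicate block gave 17 members higher and 0 lower in HEK293T, 22 and 7 in H9, and 15 and 8 for the difference. Other scalings, filters, single-line fits and the stricter threshold kept each count of members called within 1.5 times. Low counts limit HNRNPH2, SRSF12, SRSF10 and HNRNPA1L2.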
